A study of Mus musculus with 3 samples.

Results

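Barcodes rich in platelet transcripts were examined in single-cell RNA libraries of CD11b+ cells from the mouse fetal brain at E18.5. Barcodes entered when 300 or more genes were detected and mitochondrial genes gave no more than 10% of UMIs (unique molecular identifiers, the counted RNA molecules). A kept barcode was taken when at least 3 of the 6 platelet and megakaryocyte genes Itga2b, Gp9, Ppbp, Gp1bb, Gp6 and Treml1 had a UMI while the microglia gene Tmem119 and the macrophage gene Mrc1 had none. Of 38212 kept barcodes in the 3 libraries, 65 met this rule. They were chosen by measured values, so the levels of these 8 genes are given as a description, without a test. The working name of the set was megakaryocytes and platelets. The data went against that name for most of the set, and the members are called platelet-gene barcodes.

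The libraries came from 3 groups with 1 library each. Gzmb-cko+polyIC fetal brain carried the genotype Ncr1-cre;gzmbf/f and the treatment polyIC, a synthetic double-stranded RNA that mimics viral infection. Ncr1-cre+polyIC brain had the same treatment without the floxed granzyme B allele, and Ncr1-cre+Saline brain had saline. All 3 groups carried Ncr1-cre, a Cre driven by the gene of a natural killer cell receptor, used to recombine floxed alleles in natural killer and related innate lymphoid cells. No Gzmb-cko library with saline is analysed here, and the number of fetuses per library, the dose and whether dam or fetus was treated were not stated in those labels. With 1 library per group, genotype, treatment and library cannot be told apart, no test between libraries was made, and intervals on shares and ratios cover counting error only. Outside the platelet-gene barcodes, the targeted gene Gzmb had 2 UMIs, in 1 of the 13911 other kept barcodes of Gzmb-cko+polyIC. It had 127 UMIs in 6 of the 11692 of Ncr1-cre+polyIC and 61 UMIs in 4 of the 12544 of Ncr1-cre+Saline. So few barcodes held Gzmb that its loss was not tested. No platelet-gene barcode of any library had a Gzmb UMI.

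The kept barcodes held 99288278 UMIs in Gzmb-cko+polyIC, 69596554 in Ncr1-cre+polyIC and 82103332 in Ncr1-cre+Saline, with a median of 5960, 4989 and 5276.5 UMIs per barcode in the same order. The smallest kept barcode had 500 UMIs in both polyIC libraries but 3133 UMIs in Ncr1-cre+Saline, so small barcodes could be seen only in the polyIC libraries. Pairs of libraries shared between 63 and 71 barcode sequences, and 1 platelet-gene barcode sequence also occurred in another library, where it was not a platelet-gene barcode. Scrublet called between 1.99% and 2.24% of the kept barcodes of a library doublets, and it called 0 of the 65.

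Platelets are anucleate fragments that megakaryocytes release through long proplatelet extensions built from microtubules. They carry adhesion receptors such as the glycoprotein Ib-IX-V complex and the integrin alpha IIb beta 3, and they store chemokines and clotting proteins in alpha granules. They lack a nucleus but keep megakaryocyte messenger RNA, so the same genes mark both. In mice, fetal megakaryocytes mature mainly in the liver, and platelets reach the fetal brain with the blood. Ttr encodes transthyretin, the thyroid hormone carrier that choroid plexus epithelium makes in very large amounts, and Malat1 is a long noncoding RNA retained in the nucleus.

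The rule genes include the chemokine gene Ppbp and the receptor subunit gene Gp9, and Pf4, the chemokine gene beside Ppbp, was not used by the rule and had 2260 UMIs in the set. The 250 bases before the transcription start of these 3 genes (RefSeq, GRCm38.p6) are shown because they are the control regions nearest to the transcripts that define the barcodes. Capitals mark matches, on either strand, to short forms of motifs bound by factors of the megakaryocyte lineage. The ETS-type words were AGGAAG or else CGGAAG. The GATA-type words were AGATAA or else AGATAG or else TGATAA or else TGATAG. No word overlapped another.
Ppbp, chr5:90768268-90768517, plus strand: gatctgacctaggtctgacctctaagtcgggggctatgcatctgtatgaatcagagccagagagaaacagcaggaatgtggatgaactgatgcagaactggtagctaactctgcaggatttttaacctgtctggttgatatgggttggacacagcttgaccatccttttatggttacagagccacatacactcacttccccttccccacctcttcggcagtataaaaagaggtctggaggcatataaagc
Pf4, chr5:90772185-90772434, plus strand: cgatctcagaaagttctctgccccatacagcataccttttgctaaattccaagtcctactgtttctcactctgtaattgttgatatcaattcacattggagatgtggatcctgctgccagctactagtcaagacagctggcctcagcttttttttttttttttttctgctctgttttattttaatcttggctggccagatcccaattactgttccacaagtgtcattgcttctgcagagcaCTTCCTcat
Gp9, chr6:87777820-87778069, plus strand: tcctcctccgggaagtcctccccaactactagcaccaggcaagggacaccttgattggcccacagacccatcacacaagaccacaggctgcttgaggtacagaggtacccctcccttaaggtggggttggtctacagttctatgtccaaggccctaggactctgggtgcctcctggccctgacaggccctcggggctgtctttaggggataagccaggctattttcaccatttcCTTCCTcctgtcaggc
The Pf4 window held 1 ETS-type word starting 9 bases from the start site and the Gp9 window held 1 at 16 bases, while the Ppbp window held none. None of the 3 windows held a GATA-type word. Among the 105 of 132 genes of the 6 platelet lists used below that had a RefSeq window, 51 (48.6%) held an ETS-type word and 21 (20%) a GATA-type word. Over all 27025 windows the shares were 39.0% and 27.1%. These are letter matches, given as a description.

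Platelet-gene barcodes made up 0.287% of kept barcodes in Gzmb-cko+polyIC (40 of 13951, exact 95% interval 0.205 to 0.390%). The share was 0.111% in Ncr1-cre+polyIC (13 of 11705, 0.0591 to 0.190%) and 0.0956% in Ncr1-cre+Saline (12 of 12556, 0.0494 to 0.167%). The Gzmb-cko+polyIC interval lay above both others by counting error alone. With the UMI minimum of 3133 applied to every library, the counts were 30, 7 and 12 barcodes in the same order, and the Gzmb-cko+polyIC share (0.255%, 0.172 to 0.364%) still lay above the Ncr1-cre+polyIC (0.0816%, 0.0328 to 0.168%) and Ncr1-cre+Saline (0.0956%) intervals. The separation also held with at least 2 or at least 4 rule genes and without the exclusion of Tmem119 and Mrc1. Leaving out Scrublet doublets, or barcodes of at least 50% hemoglobin, did not end it either. It ended under other rules. With at least 500 genes the Gzmb-cko+polyIC interval (0.163 to 0.336%) overlapped that of Ncr1-cre+Saline (0.0511 to 0.172%). Without barcodes of at least 5% Ttr it (0.0248 to 0.113%) overlapped that of Ncr1-cre+polyIC (0.0139 to 0.0997%). Of the 65 barcodes, 16 had 3 of the 6 rule genes, 13 had 4, 13 had 5 and 23 had all 6. Just outside the rule, with exactly 2 of the genes, were 17 barcodes in Gzmb-cko+polyIC, 9 in Ncr1-cre+polyIC and 0 in Ncr1-cre+Saline. A further 24, 7 and 16 barcodes in that order had at least 3 rule genes but were barred by a Tmem119 or Mrc1 UMI.

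The rule genes themselves ranged widely between barcodes. The 6 genes together had a median of 19.5 UMIs per barcode in Gzmb-cko+polyIC (3 to 166), 7 in Ncr1-cre+polyIC (3 to 23) and 19 in Ncr1-cre+Saline (5 to 64). Gp9, a subunit of the von Willebrand factor receptor, had a UMI in 38 of 40, 10 of 13 and 12 of 12 barcodes in that order. Ppbp, the platelet basic protein chemokine, had a UMI in 34 of 40, 11 of 13 and 10 of 12. Gp6, the collagen receptor glycoprotein VI, was the rarest of the 6, with a UMI in 24 of 40, 3 of 13 and 5 of 12.

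Transthyretin RNA, not a platelet RNA, was the most abundant transcript of the set. Ttr supplied 70355 of its 476944 UMIs, ahead of the hemoglobin gene Hbb-bs with 16734 (16507 of them in 3 barcodes), the actin-binding thymosin gene Tmsb4x with 12189, Ctla2a with 3316 and Pf4 with 2260. In 51 of the 65 barcodes Ttr made up at least 5% of UMIs, with a median of 15.0% and a range of 6.13 to 46.8%. These 51 were 32 of 40 barcodes in Gzmb-cko+polyIC, 8 of 13 in Ncr1-cre+polyIC and 11 of 12 in Ncr1-cre+Saline. Among the other kept barcodes, 9.73%, 9.10% and 4.14% reached 5% Ttr in the same order. The median Ttr share over all platelet-gene barcodes was 12.7%, 17.9% and 15.1%. It was 18.0%, 23.2% and 20.9% in choroid-gated barcodes (at least 2 of Folr1, Clic6 and Kl, no Tmem119 or Mrc1, not in the set), and 0.0268%, 0.140% and 0.173% in microglia-gated barcodes (at least 3 of 7 microglia markers, no Mrc1). Of the 51, 41 also had a UMI of Folr1, a folate receptor of the choroid plexus.

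**Figure D1:**
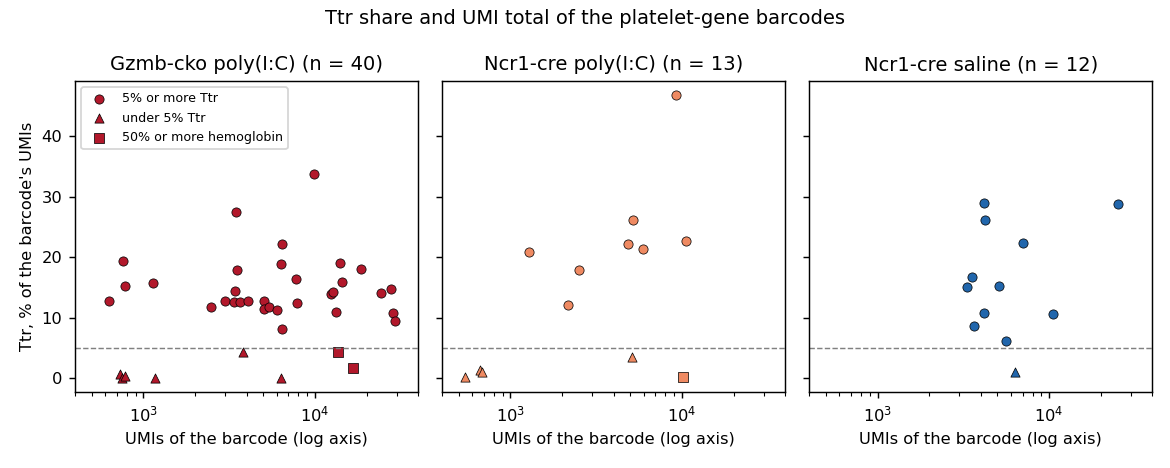
Each point is 1 platelet-gene barcode, with its UMI total on a log axis and the percentage of its UMIs from Ttr on the vertical axis, in 1 panel per library; circles have at least 5% Ttr (dashed line), triangles less, and squares at least 50% hemoglobin. Most barcodes lie above the line in all 3 libraries, and the small barcodes with almost no Ttr lie at the lower left of the Gzmb-cko+polyIC and Ncr1-cre+polyIC panels.

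The platelet transcripts and Ttr were found in the same barcodes. Kept barcodes with at least 5% Ttr had at least 3 rule genes (the exclusion of Tmem119 and Mrc1 not applied) in 37 of 1385 cases in Gzmb-cko+polyIC (2.67%, 1.89 to 3.66%), in 10 of 1072 in Ncr1-cre+polyIC (0.933%, 0.448 to 1.71%) and in 20 of 530 in Ncr1-cre+Saline (3.77%, 2.32 to 5.77%). Kept barcodes with less Ttr had them in 0.215%, 0.0940% and 0.0665% of cases in the same order. Since these are the genes that chose the set, the shares are a description. Whether 1 cell, 2 cells in a droplet or a cell with attached platelets gave these barcodes was not tested.

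The nuclear RNA Malat1 was low in most of the set. It had no UMI in 33 of the 65 barcodes and less than 500 CPM (a gene's UMIs scaled to the same total in every class, the usual CPM scale) in 52. The median barcode had 0 CPM in Gzmb-cko+polyIC, 95.3 CPM in Ncr1-cre+polyIC and 193 CPM in Ncr1-cre+Saline. Choroid-gated barcodes had medians of 168, 152 and 951 CPM, and microglia-gated barcodes had 13417, 15004 and 14922 CPM, in the same order. Low Malat1 was thus shared with choroid-gated barcodes and is not particular to platelet transcripts.

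**Figure D2:**
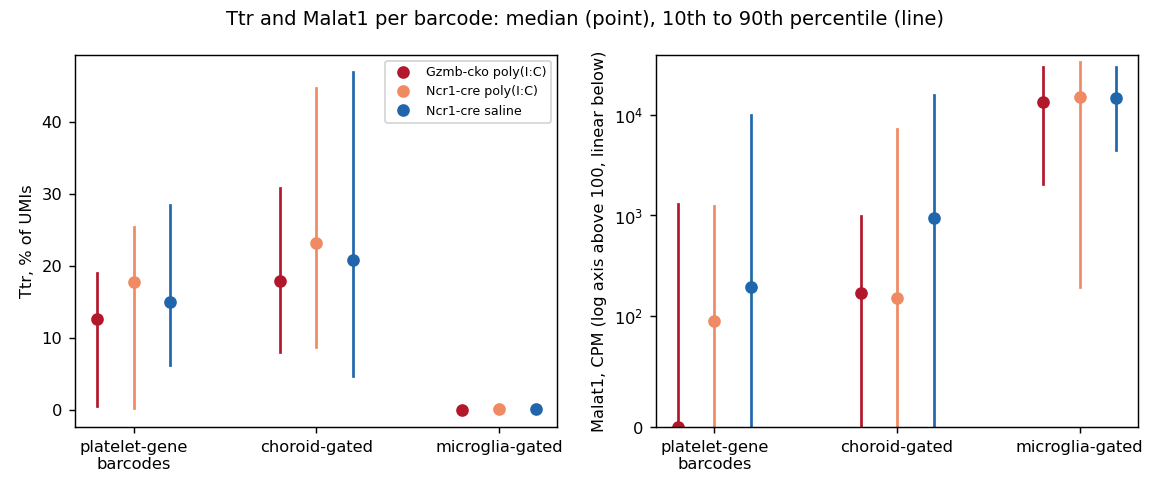
Points are medians over barcodes and lines run between the 10th and 90th percentiles, for the Ttr share of UMIs at left and Malat1 CPM at right (log axis above 100, linear below), in platelet-gene, choroid-gated and microglia-gated barcodes of each library. Platelet-gene barcodes sit beside choroid-gated ones in both measures and far from microglia-gated ones.

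Few barcodes of the set combined platelet transcripts with little Ttr and little hemoglobin. Of the 11 barcodes with less than 5% Ttr and less than 50% hemoglobin, 7 had fewer than 1000 detected genes, and these came from Gzmb-cko+polyIC (4) and Ncr1-cre+polyIC (3). They held 545 to 1172 UMIs and 304 to 472 genes each, all below the UMI minimum of Ncr1-cre+Saline. Their leading genes were Tmsb4x (469 of 5324 UMIs), Pf4 (172), Actb (109) and Ctla2a (105), with Cd9, Nrgn and Ppbp (31) among the first 15, and they had 1 Malat1 UMI between them. The 4 of Gzmb-cko+polyIC had 9, 31, 38 and 39 Pf4 UMIs and the 3 of Ncr1-cre+polyIC had 3, 7 and 45. The other 4 low-Ttr barcodes had at least 1000 genes, with Apoe and Malat1 among their 5 leading genes. The remaining 3 of the 65 were dominated by hemoglobin RNA, at 71.9% and 86.7% of UMIs in Gzmb-cko+polyIC and 93.4% in Ncr1-cre+polyIC.

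The set was compared gene by gene with all other kept barcodes and with the choroid-gated barcodes, which share its Ttr. UMIs were summed per class and library, and edgeR's quasi-likelihood test was fitted with library as a block (n = 3 libraries, Benjamini-Hochberg adjustment). The fit shares the spread across genes, so a very small p-value does not measure a gene's own spread over 3 libraries. A gene was called at an adjusted p under 0.05 and an absolute log2 fold of at least 1, and the rule and gate genes were left out. Against all other kept barcodes, 1274 of 14181 genes were called higher (8.98%) and 2164 lower (15.3%), with a median log2 fold of -0.84 over all genes tested, or -0.08 with genes at 0 in the set placed at the limit that 3 counts allow. Against choroid-gated barcodes, 168 of 7845 genes were called higher (2.14%) and 10 lower (0.127%), with a median of -0.10. Of the 168, 96 were also called higher in the first comparison (57.1% of the 168 and 7.54% of the 1274), which shares the platelet-gene sums. The 14 barcodes with less than 5% Ttr alone gave 27 genes higher and 36 lower against all other kept barcodes. Of the 27, 25 were among the genes higher against choroid-gated barcodes, beside 2.14% of all genes. The 14 are part of the set in that comparison, so this overlap is not independent. Only 1 of the 14 came from Ncr1-cre+Saline, without a Ctla2a or Clec1b UMI, and 3 of the 14 were dominated by hemoglobin. Without the Gzmb-cko+polyIC library, which holds 40 of the 65 barcodes, 327 genes were higher and 740 lower against other kept barcodes, and 67 higher and 20 lower against choroid-gated ones. Without Ncr1-cre+Saline, 840 were higher and 1213 lower against other kept barcodes, and 142 higher and 5 lower against choroid-gated ones, where leaving out Ncr1-cre+polyIC gave 162 and 19.

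Adhesion receptor genes were mostly higher. Clec1b, the podoplanin receptor CLEC-2, reached 817 CPM in Gzmb-cko+polyIC, 307 in Ncr1-cre+polyIC and 567 in Ncr1-cre+Saline platelet-gene barcodes, against 3.30, 2.06 and 2.62 CPM in all other kept barcodes. It was higher in all 3 libraries, with a log2 fold of 7.59 ± 0.38 (SE, edgeR adjusted p = 5.34e-85), and of 9.31 ± 0.35 against choroid-gated barcodes (adjusted p = 7.23e-153). Gp5, the glycoprotein V subunit of the von Willebrand factor receptor, had 61 UMIs in the set, 66 in all other kept barcodes and none in choroid-gated barcodes. The tetraspanin gene Cd9 was 1893, 922 and 1676 CPM in the set, against 943, 612 and 503 CPM in other kept barcodes, a smaller difference (log2 1.01 ± 0.28, adjusted p = 0.00290). Itgb3, the beta 3 chain of the fibrinogen receptor, had log2 folds of 4.18 and 7.37 in the 2 comparisons.

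Of 22 adhesion genes, 5 belonged to the rule and 16 were tested against all other kept barcodes. There 10 were called higher and 3 lower (median log2 1.73), beside 8.98% and 15.3% of all genes. Against choroid-gated barcodes 10 of 12 tested were higher and none lower (median 2.91), beside 2.14% and 0.127% of all genes. The 3 lower genes were Fcer1g, the signalling partner of glycoprotein VI that microglia and other myeloid cells also express, with Itga6 and F11r. Fcer1g was at 799, 512 and 1122 CPM in the set, against 2769, 2117 and 2253 CPM in other kept barcodes (log2 -1.71 ± 0.30), but above choroid-gated barcodes (log2 1.54 ± 0.18). Its direction thus turned with the barcodes it was set against. Itga2 and Cd36 of this list had no UMI in the set. In this list and those below, a gene could enter the test through its level in the set alone. Gp5 did so against choroid-gated barcodes. The counts of higher genes are thus fixed in part by the set and are given as a description.

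Among alpha granule and clotting genes, Pf4 stood highest. Pf4, the chemokine platelet factor 4, was at 4836, 2184 and 6151 CPM in platelet-gene barcodes of the 3 libraries, against 667, 282 and 228 CPM in other kept barcodes and 44.7, 3.06 and 8.42 CPM in choroid-gated ones. Its log2 fold was 3.40 ± 0.32 against all other kept barcodes (edgeR adjusted p = 1.41e-23) and 8.40 ± 0.24 against choroid-gated barcodes (adjusted p = 2.14e-255). Pf4 was also found in another class, whose part in the smaller first value was not tested. Border macrophage-gated barcodes (at least 3 of 6 markers, no Tmem119), which belong to the other kept barcodes, held Pf4 at 4575, 4228 and 2059 CPM. Ppbp, whose gene lies 2371 bases from Pf4 on chromosome 5, was at 7.32, 10.5 and 3.19 CPM there, against 611, 239 and 627 CPM in platelet-gene barcodes. Ppbp is a rule gene, so its level in the set is fixed in part by the selection and is given as a description.

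Vwf, the von Willebrand factor that tethers platelets to vessel walls, had 65 UMIs in the set and 2 in choroid-gated barcodes. Thbs1, thrombospondin 1, was at 537, 256 and 470 CPM in the set, against 40.1, 111 and 51.6 CPM in other kept barcodes (log2 2.76 ± 0.33). Clu, clusterin, was called higher than in all other kept barcodes (log2 4.44 ± 0.32) but was at 754, 614 and 1230 CPM in the set, against 329, 717 and 656 CPM in choroid-gated barcodes, and was not called there (log2 0.75 ± 0.17). Of the 18 genes of this list tested against other kept barcodes, 9 were higher and 4 lower (median 1.89), beside 8.98% and 15.3% of all genes. The 4 lower were Serpine2, Gas6, Sparc and F13a1. Selp of this list had no UMI in the set. Against choroid-gated barcodes 7 of 17 were higher and none lower (median 0.75), beside 2.14% and 0.127% of all genes.

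**Figure D3:**
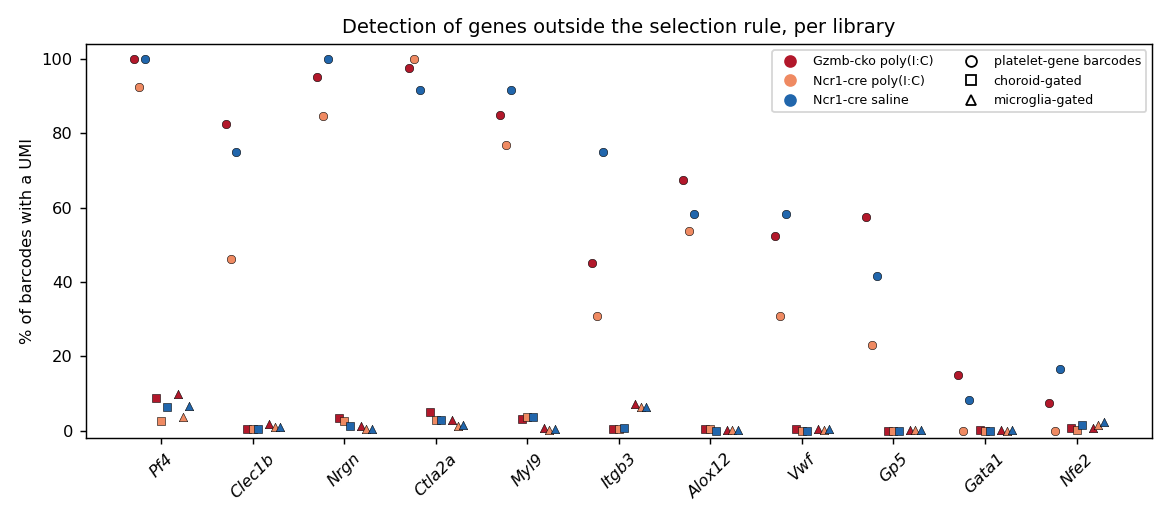
The percentage of barcodes with a UMI is plotted for 11 genes outside the rule in platelet-gene (circles), choroid-gated (squares) and microglia-gated (triangles) barcodes of the 3 libraries, coloured by library. Pf4, Nrgn and Ctla2a were found in more than 80% of platelet-gene barcodes of each library, while Gata1 and Nfe2 were found in few.

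Agonist receptor and eicosanoid genes were split. Alox12, the platelet 12-lipoxygenase, was at 355, 222 and 205 CPM in the set, against 0.910, 0.417 and 0.792 CPM in other kept barcodes (log2 8.45 ± 0.45, edgeR adjusted p = 6.42e-75). Rasgrp2, the exchange factor that switches on Rap1 and integrins, was at 316, 188 and 229 CPM in the set, against 16.1, 20.4 and 18.4 CPM in other kept barcodes (log2 3.71 ± 0.37). The ADP receptor gene P2ry12, which microglia also express, was lower in the set than in other kept barcodes (log2 -2.86 ± 0.34) and was not called against choroid-gated ones (log2 1.08 ± 0.36). In all, 7 of 19 tested genes were higher and 7 lower against other kept barcodes, beside 8.98% and 15.3% of all genes. Against choroid-gated barcodes 8 of 12 were higher and none lower, beside 2.14% and 0.127% of all genes.

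Most cytoskeletal genes tested were higher than in choroid-gated barcodes. Nrgn, the calmodulin-binding neurogranin found in neurons and in platelets, was at 2352, 939 and 2074 CPM in the set, against 7.89, 4.10 and 6.83 CPM in other kept barcodes and 14.9, 4.34 and 1.87 CPM in choroid-gated ones. It was called higher in both comparisons (edgeR adjusted p = 8.44e-104 and 5.19e-271), with 328-fold higher CPM than in other kept barcodes and a log2 fold of 8.11 ± 0.22 against choroid-gated ones. Myl9, the myosin light chain of platelet contraction, was at 1249, 546 and 1025 CPM in the set, against 3.05, 2.39 and 2.90 CPM in other kept barcodes (log2 8.25 ± 0.36). The tropomyosin gene Tpm4 and the focal adhesion gene Zyx were also higher in both comparisons. Of 20 tested genes, 11 were higher and 1, Rhob, lower against other kept barcodes (median 1.81), beside 8.98% and 15.3% of all genes. Against choroid-gated barcodes 15 of 19 were higher (median 3.32), beside 2.14% of all genes.

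Among granule machinery genes, Stx11, a syntaxin needed for granule release, was called higher in both comparisons (log2 4.40 ± 0.57 and 5.83 ± 0.66), from 40 UMIs in the set. Plek, pleckstrin, was called only against choroid-gated barcodes (log2 3.34 ± 0.31, with 0.50 ± 0.32 against other kept barcodes), and the difference between the 2 values was not tested. In this list 2 of 19 tested genes were higher and 1 lower against other kept barcodes, beside 8.98% and 15.3% of all genes. Such counts are near the background and say little about the list. Against choroid-gated barcodes 3 of 9 were higher, beside 2.14% of all genes. Slc18a2 of this list had no UMI in the set. Among lineage transcription factors and thrombopoietin signalling genes, Gata1, the factor that drives megakaryocyte and erythroid genes, had 10 UMIs in 7 barcodes (log2 6.01 ± 0.99 against other kept barcodes). Nfe2, needed for platelet release, had 6 UMIs in 5 barcodes, and Gata2 had none. In this list 9 of 22 tested genes were lower against other kept barcodes (median -1.69), and none of 12 was lower against choroid-gated ones. The shares lower over all genes were 15.3% and 0.127%. The lower genes included Runx1 and Fli1, with 6 UMIs each in the set.

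**Figure D4:**
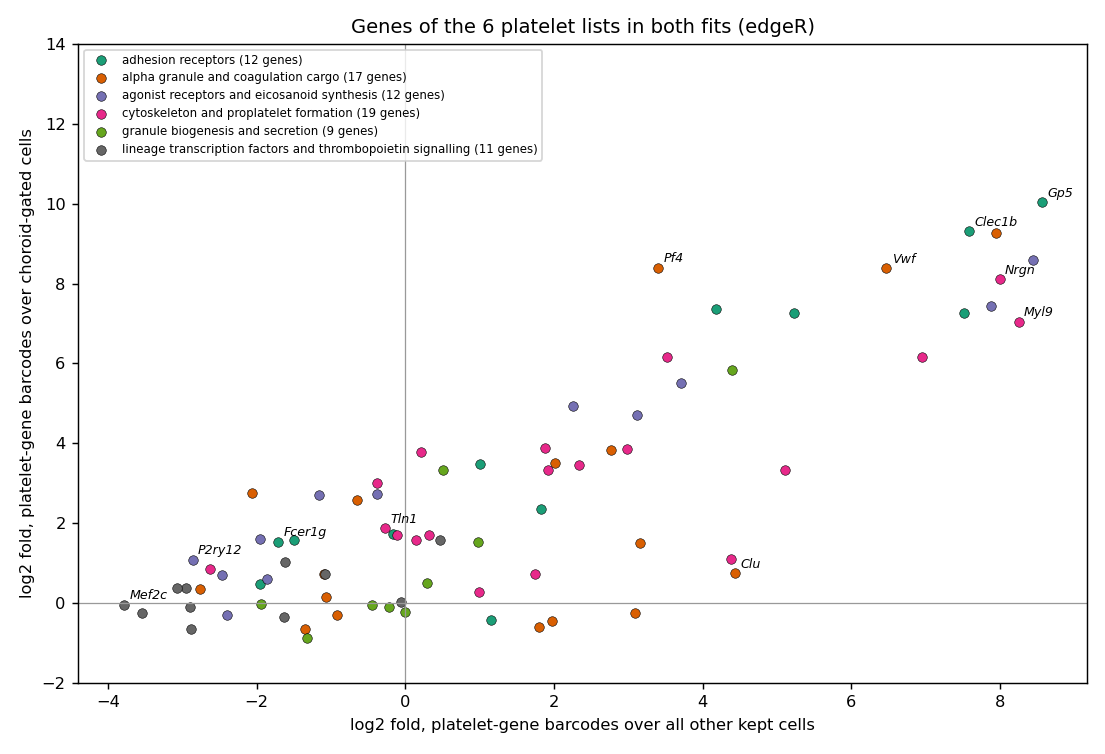
Points are genes of the 6 platelet lists tested in both comparisons, 1 gene not reported here left out, with the edgeR log2 fold against all other kept barcodes on the horizontal axis and against choroid-gated barcodes on the vertical axis, coloured by list. Points toward the upper right, such as Nrgn and Clec1b, were higher in both; Clu lies far right but near 0 on the vertical axis, and the vertical values of Gp5 and Mmrn1, with no UMI in choroid-gated barcodes, depend on the fit's prior count.

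Beyond the lists, among called genes with at least 50 CPM in the set in every library, Ctla2a had the largest log2 fold in both comparisons. Ctla2a, a cysteine protease inhibitor gene, was at 7447, 3038 and 7719 CPM in the set, against 17.0, 7.94 and 19.7 CPM in other kept barcodes and 36.0, 12.5 and 4.68 CPM in choroid-gated ones. Its log2 folds were 8.54 ± 0.41 and 8.59 ± 0.24 (edgeR adjusted p = 3.00e-94 and 1.11e-262). Its copy Ctla2b was also called in both, and reads shared by such near-identical genes may have been split or lost in counting. Gng11, a G protein gamma subunit gene, was at 1559, 836 and 1809 CPM in the set, against 8.52, 7.74 and 7.01 CPM in other kept barcodes. Gchfr and Tmem40 were also called higher in both comparisons. The 6 genes named for the largest lower folds, Lcn2, Stfa2l1, Stfa2, Csf1, Gpr183 and P2rx4, had no UMI in the set. Against the limit of 3 counts over the set, Lcn2, a neutrophil granule gene, was at least 36.6-fold lower than in other kept barcodes.

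For lists of cell state genes, against all other kept barcodes, 20 of 22 G2 and M phase genes, 14 of 20 G1 and S phase genes, 17 of 23 immediate early and heat shock genes, 15 of 23 inflammatory genes and 11 of 13 antigen presentation genes were called lower, with 1 G1 and S phase gene and no gene of the others higher. Of 19 oxidative phosphorylation genes, 9 were higher and none lower. Over all genes of this comparison, 8.98% were higher and 15.3% lower. Against choroid-gated barcodes, where 0.127% of all genes were called lower, none of the tested genes of these lists was called: 5 G2 and M phase genes (median log2 -1.04), 10 G1 and S phase, 19 immediate early and heat shock, 5 inflammatory (median -0.71), 7 antigen presentation and 19 oxidative phosphorylation genes. Such counts are near the background and say little about the lists. Of 23 interferon response genes, 1, Bst2, was lower than in other kept barcodes, and 1 of 17, Ifitm3, was higher than in choroid-gated ones.

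Markers of other cell types were also read. Against other kept barcodes, all 4 choroid plexus markers were called higher, while against choroid-gated barcodes the only marker outside the gate, Ttr, was not called (log2 -0.44 ± 0.14). The Ttr level was 129805, 196665 and 184410 CPM in the set, against 174257, 274312 and 272531 CPM in choroid-gated barcodes. Of 5 neutrophil markers tested against choroid-gated barcodes, 5 were lower, and of 4 hemoglobin genes 3 were higher. The summed hemoglobin genes ranged between 4149 CPM in Ncr1-cre+Saline and 162688 CPM in Ncr1-cre+polyIC platelet-gene barcodes, with 73466 CPM in Gzmb-cko+polyIC. The 3 hemoglobin barcodes held most of these UMIs in the polyIC libraries, and the median barcode had 0.103% hemoglobin UMIs in Gzmb-cko+polyIC, 0.304% in Ncr1-cre+polyIC and 0.407% in Ncr1-cre+Saline. The rule bars Tmem119 and Mrc1, so tests of microglia and border macrophage markers are not independent of it. Against other kept barcodes 6 of 6 and 5 of 5 tested were lower, and the rule's share in this was not tested. The 5 microglia markers tested against choroid-gated barcodes were not called. Their part in the results above was not tested.

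Erythroid cells share transcription factors with megakaryocytes, so the set was also compared with erythroid-gated barcodes (at least 3 of 5 erythroid markers). Of 3848 genes tested, 668 were called higher (17.4%) and 788 lower (20.5%). Nrgn and Pf4 were higher, with edgeR log2 folds of 8.75 and 6.33. Pf4 was at 7.94, 0.858 and 22.9 CPM in erythroid-gated barcodes of the 3 libraries, and Nrgn had 5 UMIs there over all 3. All 4 tested hemoglobin genes were lower. Without Gzmb-cko+polyIC, 345 genes were called higher and 375 lower. Hemoglobin RNA fills most of an erythroid barcode, so CPM and scaled values part widely here. Fcer1g had 2.51-fold higher CPM in the set than in erythroid-gated barcodes, but a scaled log2 fold of -1.35.

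The platelet transcripts differed between the libraries in summed level. With genes of at least 30 UMIs over both libraries, 230 of 1467 genes were at least 2-fold higher in Gzmb-cko+polyIC than in Ncr1-cre+polyIC platelet-gene barcodes (15.7%) and 36 at least 2-fold lower (2.45%). In Ncr1-cre+polyIC against Ncr1-cre+Saline, 10 of 563 genes were at least 2-fold higher (1.78%) and 86 lower (15.3%). Both contrasts share the Ncr1-cre+polyIC library, whose 58597 UMIs from 13 barcodes include 10088 from the barcode with 93.4% hemoglobin. The median log2 ratio over all genes was 0.36 in the first contrast and -0.36 in the second, and without the 3 hemoglobin barcodes it was 0.21 and -0.14. Without them, 186 genes were higher and 60 lower in the first contrast, and 22 higher and 46 lower in the second. With hemoglobin, ribosomal and mitochondrial genes out of the total, the second contrast had 20 higher and 39 lower.

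Pf4 was lowest in Ncr1-cre+polyIC when UMIs were summed. A barcode had a median of 28 Pf4 UMIs in Gzmb-cko+polyIC (1 to 252), 3 in Ncr1-cre+polyIC (0 to 45) and 38.5 in Ncr1-cre+Saline (3 to 134). The ranges overlapped. The CPM ratio was 2.21 (95% interval 1.85 to 2.67) for Gzmb-cko+polyIC over Ncr1-cre+polyIC and 0.355 (0.290 to 0.432) for Ncr1-cre+polyIC over Ncr1-cre+Saline. These ratios depended on how barcodes were weighted: as ratios of mean CPM per barcode they were 1.14 and 1.11. The 4 low-Ttr barcodes of Ncr1-cre+polyIC held Pf4 at 7990 CPM and only 7009 UMIs. Without the Ncr1-cre+polyIC barcode richest in Pf4 they were 3.38 and 0.233. Within the barcodes with at least 5% Ttr, Pf4 was at 4780 CPM in Gzmb-cko+polyIC, 1518 in Ncr1-cre+polyIC and 6622 in Ncr1-cre+Saline.

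Nrgn, Ctla2a and Clec1b were also lowest in Ncr1-cre+polyIC in summed level, though the order of the other libraries differed between genes. Nrgn had ratios of 2.51 (1.91 to 3.36) and 0.452 (0.328 to 0.616) in the 2 contrasts, and 1.60 and 0.986 as means per barcode. Ctla2a had ratios of 2.45 (2.11 to 2.87) and 0.394 (0.331 to 0.465), and 1.42 and 0.900 as means per barcode. Clec1b had 2.66 (1.65 to 4.55) and 0.542 (0.296 to 0.951). List genes past the UMI minimum were set first in Gzmb-cko+polyIC against Ncr1-cre+polyIC. At least 2-fold higher were 5 of 7 adhesion, 4 of 9 alpha granule and 2 of 5 agonist receptor genes. So were 6 of 15 cytoskeletal and 2 of 4 granule genes, and none was at least 2-fold lower. Over all genes 15.7% were at least 2-fold higher and 2.45% lower, so the absence of lower genes is near the background. In Ncr1-cre+polyIC against Ncr1-cre+Saline, 2 of 4 adhesion and 3 of 5 alpha granule genes were at least 2-fold lower. So were 1 of 7 cytoskeletal and 1 of 2 granule genes, while 1 cytoskeletal gene, Tuba4a, was higher. Over all genes 15.3% were at least 2-fold lower and 1.78% higher, and the cytoskeletal count of lower genes is near that share.

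**Figure D5:**
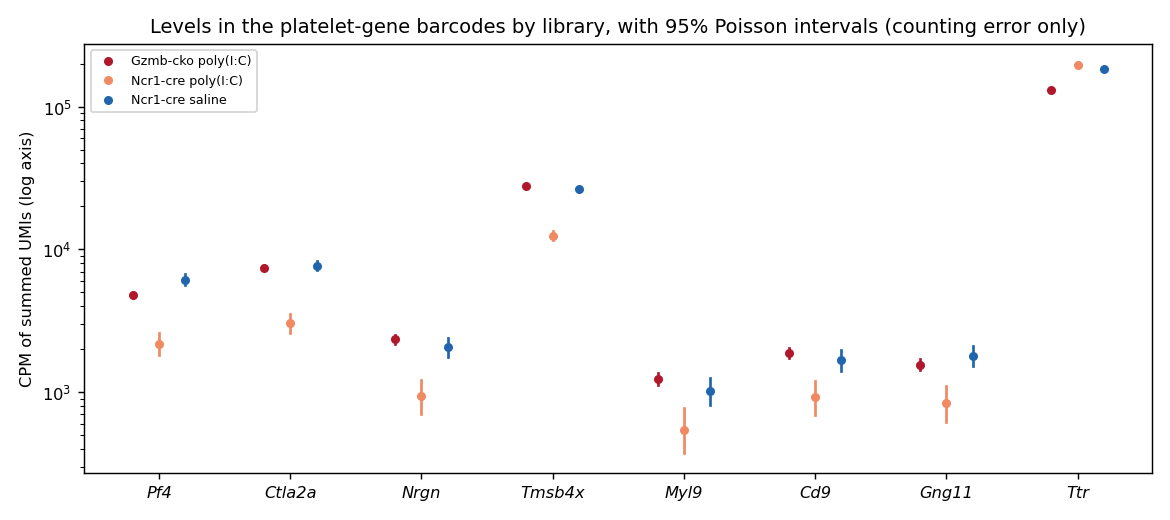
Points are CPM of summed UMIs in the platelet-gene barcodes of each library on a log axis, and lines are exact 95% Poisson intervals that cover counting error only. Pf4, Ctla2a, Nrgn, Tmsb4x, Myl9, Cd9 and Gng11 are lowest in Ncr1-cre+polyIC, while Ttr is lowest in Gzmb-cko+polyIC.

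Depth was set equal by thinning each barcode to 2000 UMIs, which left out 8 barcodes of Gzmb-cko+polyIC, 4 of Ncr1-cre+polyIC and 0 of Ncr1-cre+Saline. Pf4 was then found in 31 of 32 barcodes of Gzmb-cko+polyIC (96.9%), 5 of 9 of Ncr1-cre+polyIC (55.6%) and 11 of 12 of Ncr1-cre+Saline (91.7%), against 100%, 92.3% and 100% of all members before thinning. In microglia-gated barcodes 10.0%, 3.66% and 6.63% had a Pf4 UMI unthinned, at a median of 5783, 5137 and 4818 UMIs. They were not thinned, so these shares are not at the same depth as those above. Nrgn was found in 30 of 32, 5 of 9 and 12 of 12 thinned barcodes. Of the 9 thinned Ncr1-cre+polyIC barcodes, 8 had Ctla2a.

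The largest ratios between libraries rested on few UMIs. Hrsp12, a deaminase gene, had 87 UMIs in Gzmb-cko+polyIC platelet-gene barcodes and 1 in Ncr1-cre+polyIC, a ratio of 15.2 with an interval of 2.66 to 607. The next 9 genes by ratio, among them Prkar2b (a protein kinase A regulatory subunit), Snx3 and Riok3, had 1 or 2 UMIs in Ncr1-cre+polyIC. In the other direction S100a6, a calcium-binding protein gene, had 14 UMIs in Gzmb-cko+polyIC and 18 in Ncr1-cre+polyIC (ratio 0.136, 0.0625 to 0.289), but all 18 came from 1 barcode of Ncr1-cre+polyIC, and the other 12 had none. Lgals3, galectin 3, had a ratio of 0.183, or 0.877 without its richest barcode, and Ifitm3, an interferon-induced membrane protein gene, 0.357 (0.247 to 0.525). Of the 44 Ifitm3 UMIs of Ncr1-cre+polyIC, 40 came from 1 barcode. Without that barcode the ratio turned to 3.59, and the Ifitm3 ratio of Ncr1-cre+polyIC over Ncr1-cre+Saline was 5.66 with it and 0.564 without it. The direction of Ifitm3 thus rested on 1 barcode in both contrasts.

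Between Ncr1-cre+polyIC and Ncr1-cre+Saline, 65 genes passed the naming rule as lower and the 10 lowest ratios were named. The complement genes C1qa, C1qb and C1qc, expressed by microglia and macrophages, had ratios of 0.199, 0.205 and 0.220. These depended on the weighting: as ratios of mean CPM per barcode they were 0.666, 0.408 and 0.980. Without the Ncr1-cre+polyIC barcode richest in each gene they were 0.0895, 0.145 and 0.0318. C1qc had 7 UMIs in 2 Ncr1-cre+polyIC barcodes. Malat1 had 62 UMIs in Ncr1-cre+polyIC and 367 in Ncr1-cre+Saline (0.239, 0.180 to 0.314), with 7 barcodes holding a UMI in each; 55 of the 62 came from 1 barcode, without which the ratio was 0.0296. Stmn1, a microtubule regulator of dividing cells and neurons, had a ratio of 0.144 (0.0449 to 0.360), and Otx2, a choroid plexus transcription factor gene, 0.250. Tuba4a, the alpha tubulin of the platelet marginal band, had 19 UMIs in Ncr1-cre+polyIC and 12 in Ncr1-cre+Saline, a ratio of 2.24 (1.03 to 5.06), or 1.19 without its richest barcode. Of 17 oxidative phosphorylation genes past the UMI minimum, 3 were at least 2-fold lower, near the share over all genes (86 of 563, 15.3%).

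Size bands showed where the platelet transcripts lay. Platelet-gene barcodes with fewer than 1000 genes numbered 10 in Gzmb-cko+polyIC, 6 in Ncr1-cre+polyIC and 0 in Ncr1-cre+Saline. Those with 1000 or more but fewer than 2500 genes numbered 20, 6 and 10, and those with at least 2500 genes 10, 1 and 2. In the middle band, which all 3 libraries fill, alpha granule genes were at 7849 CPM in Gzmb-cko+polyIC, 3825 in Ncr1-cre+polyIC and 11289 in Ncr1-cre+Saline, and adhesion genes at 6694, 2938 and 7879 CPM. These sums include 5 adhesion rule genes and Ppbp. Lists with other orders in that band included agonist receptor genes, at 1846, 857 and 1673 CPM, and cytoskeletal genes, at 5985, 3274 and 5931 CPM. Lineage factors, at 289, 367 and 402 CPM, had a further order. Choroid plexus markers were at 139218, 264451 and 147650 CPM.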

How the data were processed

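The values deposited by the authors are unnormalized UMI counts of genes in barcodes, made with Cell Ranger 5.0.0 per the file headers (3.0.1 and STAR are named in the submitters' processing notes) on mm10, with 27998 genes. The cells were fetal brain cells enriched for CD11b by magnetic beads after a Percoll gradient, per the labels' protocols. All 3 libraries were used, with 1 library per group. The edgeR p-values rest on class differences over the 3 libraries, with their spread shared across genes by the fit. That spread may be technical, and a very small p-value does not measure a gene's own spread over 3 libraries.

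Barcodes were kept with at least 300 genes and at most 10% mitochondrial UMIs. Doublets called with Scrublet (scanpy 1.11.5) were left in and removed in an alternative. UMI counts of the platelet-gene barcodes and of each other class were summed per library and tested with edgeR 4.0.16 (quasi-likelihood, library as block, filterByExpr, Benjamini-Hochberg), with DESeq2 1.42.0 as an alternative; the fit was tested on simulated data. Levels are CPM of summed UMIs. Between libraries, ratios of summed CPM carry exact conditional binomial 95% intervals, and shares exact Clopper-Pearson ones. Depth limits each library's sum to its UMI total, and intervals cover counting error only.

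The text names up to 4 genes per platelet list by summed level; beyond the lists, called genes of at least 50 CPM with the largest log2 fold; and between libraries, genes with a ratio of at least 2 and at least 30 UMIs whose direction held under 3 other weightings. Other genes named were chosen after their values were seen. The choroid-gated class was added after seeing the data. Members and gene lists were chosen with earlier results of these data known. Promoter windows came from RefSeq. The values of 1 list gene are not reported here, though counts over its list include it.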

Additional observations from a re-analysis of the deposited data

How the results depend on the processing

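No paired analysis was possible between groups because each has 1 library; the class comparisons were fitted within library. Depth limits the results most in Ncr1-cre+polyIC, whose 13 barcodes hold 58597 UMIs. The share of platelet-gene barcodes in Gzmb-cko+polyIC moved to 0.409% with at least 2 rule genes, 0.459% without the exclusion of Tmem119 and Mrc1, and 0.0573% without barcodes of at least 5% Ttr; the last gave 0.0427% in Ncr1-cre+polyIC and 0.00796% in Ncr1-cre+Saline, where no exclusion gave 0.223%.

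Against all other kept barcodes, removing members with at least 5% Ttr left 27 genes higher and 36 lower, DESeq2 called 1388 lower, and leaving out a library gave 327 to 1142 higher and 740 to 1755 lower. Against erythroid-gated barcodes, removing high-Ttr members left 18 higher and 77 lower, no filter gave 431 higher, DESeq2 gave 493 lower, and leaving out a library gave 345 to 727 higher and 375 to 784 lower. Against choroid-gated barcodes, removing high-Ttr members left 26 higher and 169 lower; the lower count was 3 with DESeq2, 24 with no filter, 4 without the library block, 17 with at least 4 rule genes and 16 without hemoglobin barcodes, and leaving out a library gave 67 to 162 higher and 5 to 20 lower. These choroid alternatives were chosen after seeing the data.

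For Gzmb-cko+polyIC over Ncr1-cre+polyIC, a minimum of 60 UMIs gave 91 higher and 11 lower, TMM 22 lower, means per barcode 123 lower and no hemoglobin barcodes 60 lower. For Ncr1-cre+polyIC over Ncr1-cre+Saline, leaving mitochondrial, ribosomal and hemoglobin genes out of the total gave 20 higher and 39 lower, means per barcode 34 higher, 60 UMIs 5 higher and 47 lower, and no hemoglobin barcodes 22 higher and 46 lower. Directions turned for Fcer1g (0.27) and Fyb (1.25) against erythroid-gated and Snap23 (-1.01) against choroid-gated barcodes without high-Ttr members, as log2 folds, and for the ratios of Ifitm3 (4.67 with at least 4 rule genes, and 3.59 without the Ncr1-cre+polyIC barcode richest in it, chosen after seeing the data) and Tuba4a (0.545, UMI minimum of 3133). The cause was not tested.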
